A study of Mus musculus with 6 samples.

Results

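The Hox genes encode homeodomain transcription factors that give cells along the head-to-tail axis their positional identity. In the mouse they lie in 4 clusters, and within a cluster the genes stand in order of paralogue number, low numbers being used from the hindbrain backwards and high numbers only towards the tail and in the distal limb. Skin keeps such a positional code after the embryo is patterned, most clearly in dermal fibroblasts, and Hoxc13, at the high end of its cluster, is also needed in the hair follicle. The genes described here are all those whose symbol in the array's probe annotation is Hox followed by a, b, c or d and a number: 38 genes with 55 probes, of 45281 probes on the array.

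The tissue was back-skin epidermis of C57BL6 embryos at E17.5, peeled off the dermis after EDTA treatment, and total RNA was hybridised to Illumina bead arrays, 1 array per sample. The groups were 3 arrays of a Harlequin Ichthyosis mutant and 3 of wild type, called biological replicates in the labels. Neither the mutated gene nor any pooling of embryos is given there, and no agent or allele shared by the groups is named. The titles carry a prefix, bo20 for mutants 1 and 2 and wild types 1 and 2, and bo12 for mutant 3 and wild type 3, and the labels do not say what it stands for. The question addressed is which Hox genes embryonic back skin transcribes and whether the mutant differs from wild type in them.

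The arrays were not alike. Mean raw intensity over all probes was 390 to 463 in the mutants, and 273, 398 and 260 in wild types 1, 2 and 3. Between 18017 and 18422 probes were detected on the mutant arrays and between 17159 and 18297 on the wild-type arrays. Wild-type array 3 stood apart, with a Pearson's r of 0.836 to 0.891 with the others over the 18358 probes kept for testing, against 0.965 to 0.9898 among the remaining arrays. Several Hox results are therefore also given without it. The labelled tissue was checked against its markers: 9 of 10 keratinocyte markers were detected, Dsg3 being the exception. Cells beneath the epidermis were also represented, with 11 of 12 dermal fibroblast markers, 10 of 10 skeletal muscle markers and 6 of 6 endothelial markers detected. Hox values are therefore those of the whole peel, in which fewer cells of a type and less RNA per cell cannot be told apart.

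To show the sequence context of the genes that the comparison turns on, the 250 bases upstream of the annotated start are printed for Hoxa2 and Hoxa9, whose groups stood apart without overlap, and for Hoxd4 and Hoxd8, which were far lower on wild-type array 3 than on the others. Hoxa4 and Hoxc9, whose groups also did not overlap, had no entry. The sequences are from RefSeq, build GRCm38.p6, written 5′ to 3′ on the gene's own strand, and RefSeq promoters were held for 22 of the 38 genes. Capitals mark matches, on either strand, to TGATTNAT (the joint site of Hox proteins with their Pbx partners), TGACAG (Meis), TTTATNG (Cdx), TATAAA (the TATA box) or AGGTCA (a core motif of retinoid receptors). No marked matches overlap one another.
Hoxa2, chr6:52164832-52165081, minus strand: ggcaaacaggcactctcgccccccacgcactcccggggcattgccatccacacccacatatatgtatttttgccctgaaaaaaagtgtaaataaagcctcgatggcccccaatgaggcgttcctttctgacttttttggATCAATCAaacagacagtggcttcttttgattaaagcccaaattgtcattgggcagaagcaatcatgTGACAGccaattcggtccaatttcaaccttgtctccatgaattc
Hoxa9, chr6:52227371-52227620, minus strand: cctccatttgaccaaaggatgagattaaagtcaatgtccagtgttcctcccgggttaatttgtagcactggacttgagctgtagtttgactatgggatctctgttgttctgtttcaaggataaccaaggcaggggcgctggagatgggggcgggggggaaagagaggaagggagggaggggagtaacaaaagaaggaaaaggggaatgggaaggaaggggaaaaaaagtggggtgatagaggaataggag
Hoxd4, chr2:74721728-74721977, plus strand: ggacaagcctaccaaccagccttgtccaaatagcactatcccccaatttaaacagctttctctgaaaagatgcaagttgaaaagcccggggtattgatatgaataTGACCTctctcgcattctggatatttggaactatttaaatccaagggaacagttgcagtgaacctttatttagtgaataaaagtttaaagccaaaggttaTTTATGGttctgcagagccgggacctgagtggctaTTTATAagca
Hoxd8, chr2:74704365-74704614, plus strand: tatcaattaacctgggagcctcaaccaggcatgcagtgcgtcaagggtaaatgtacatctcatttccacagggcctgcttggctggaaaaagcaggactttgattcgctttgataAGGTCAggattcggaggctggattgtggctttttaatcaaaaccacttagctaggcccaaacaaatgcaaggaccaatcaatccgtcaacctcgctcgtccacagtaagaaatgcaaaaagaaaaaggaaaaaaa

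The window of Hoxa2 held 1 Hox-Pbx and 1 Meis match, starting 111 and 44 bases before the gene's start, and Hoxd4 held 1 match each to the Cdx, TATA and retinoid letters. In Hoxd8 the only marked match was 1 to the retinoid letters, and in Hoxa9 none of the 5 motifs was found. Over all 32851 promoter windows of this length, 2.82% held TGATTNAT, 15.9% TGACAG, 9.81% TTTATNG, 12.4% TATAAA and 14.02% AGGTCA. Of the 24 Hox windows, 2, 2, 2, 4 and 6 did, in the same order. The median number of CG dinucleotides was 12.5 in the Hox windows and 6 over all windows. Within the Hox family it was 10 for the 12 windows of detected genes and 15.5 for the 12 windows of genes not detected. A match is a run of letters, not a measured binding site.

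Detection was read from the score deposited beside each intensity, which says what fraction of the negative controls lay below the probe. A probe counted as detected on an array with a score above 0.95, and a gene as detected when at least 1 of its probes passed on 3 or more of the 6 arrays. By this rule 22 of 38 Hox genes (57.9%) were detected, against 51.4% of the 22491 symbols on the array, and 26 of 55 Hox probes (47.3%), against 40.5% of all probes. Of the 22 genes, 16 were detected on all 6 arrays, 2 on 5 arrays and 4 on 3 arrays. The 38 genes had 1 probe in 26 cases and several in 12. Levels are not compared between genes, because each probe has its own brightness.

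The clusters gave like shares of detected genes. In the Hoxa cluster (chromosome 6) 6 of 10 annotated genes were detected, namely Hoxa2, Hoxa4, Hoxa5, Hoxa7, Hoxa9 and Hoxa13. In the Hoxb cluster (chr11:96194316-96368254) it was also 6 of 10, and these formed an unbroken run, Hoxb2 to Hoxb7. The Hoxc cluster (chr15:102921131-103036856) gave 5 of 9, Hoxc4, Hoxc6, Hoxc9, Hoxc10 and Hoxc13. The Hoxd cluster (chr2:74668225-74765142) likewise gave 5 of 9, Hoxd3, Hoxd4, Hoxd8, Hoxd9 and Hoxd10. The spans given are those of the RefSeq Hox genes of a cluster, in build GRCm38.p6. The RefSeq spans of Hoxd3 and Hoxd4, of Hoxb3 and Hoxb4, and of Hoxd10 and Hoxd11 overlap, and that of Hoxa3 covers Hoxa4, Hoxa5 and Hoxa6. Where the probes lie on them is not stated, so these genes are less certain to be told apart.

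By paralogue number the detected genes lay mostly in the middle. For paralogues 2 to 7, which mark the hindbrain, neck and thorax, 14 of 17 genes were detected, and all 4 genes of paralogue 4 were among them. For paralogues 8 to 10, of the lower thorax and lumbar region, it was 6 of 10, with Hoxd8 the only one of 3 genes of paralogue 8. For paralogues 11 to 13, used at the sacrum, tail, genitals and distal limb, it was 2 of 9, Hoxa13 and Hoxc13. Neither paralogue 1 gene on the array, Hoxb1 or Hoxd1, was detected.

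**Figure D1:**
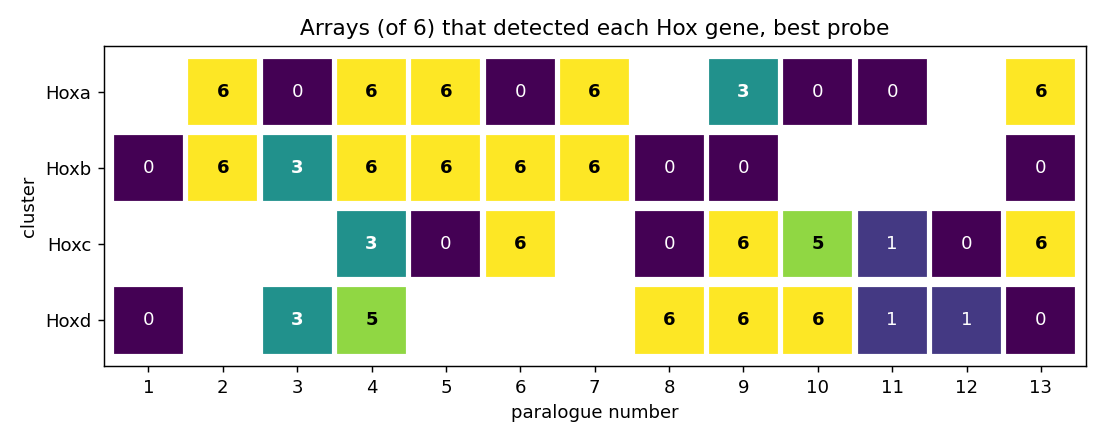
Number of arrays, of 6, that detected each annotated Hox gene with its best probe, by cluster (rows) and paralogue number (columns); blank squares have no annotated gene and bold numbers are genes detected on 3 or more arrays. Detection is dense for paralogues 2 to 7 (14 of 17 genes) and sparse for 11 to 13 (2 of 9).

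The 16 genes not detected were Hoxa3, Hoxa6, Hoxa10, Hoxa11, Hoxb1, Hoxb8, Hoxb9, Hoxb13, Hoxc5, Hoxc8, Hoxc11, Hoxc12, Hoxd1, Hoxd11, Hoxd12 and Hoxd13. Their 22 probes had raw intensities of 71.5 to 104.7 and scores from 0 to 0.978, with a median of 0.531, near the middle of the negative controls. Of these genes 13 were detected on no array, and Hoxc11, Hoxd11 and Hoxd12 on 1 each. Such a result says that this probe did not rise above background, not that the gene was silent. Probes of 1 gene could disagree: Hoxa13, a gene of the distal limb and genital tubercle, had 1 probe detected on all 6 arrays, 1 on 2 arrays and 1 on none. Hoxa9 and Hoxb3 likewise had 1 of 3 and 1 of 4 probes detected on 3 arrays. A pair of further Hox-named probes that the rule leaves out, Hoxa11s and Hoxd3os1, were detected on 0 arrays.

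At the threshold itself, Hoxb3 was detected on 1 mutant and 2 wild-type arrays, Hoxc4 on 1 and 2, and Hoxd3 on 2 and 1. Just outside it lay a Hoxa13 probe detected on 2 arrays, with scores of 0.957, 0.956 and 0.908 in the mutants, and 0.874, 0.923 and 0.546 in wild type. Hoxa9 passed through the mutant arrays alone, with raw intensities of 110.0, 128.7 and 117.2 in the mutants, and 88.6, 96.7 and 77.6 in wild type. The number of Hox genes detected on single arrays was 20, 21 and 21 in the mutants, and 19, 19 and 22 in wild type.

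Mutants were then compared with wild type on background-corrected, quantile-normalized log2 levels with limma, fitted to all 18358 probes detected on 3 or more arrays. In this fit 0 probes (0%) passed a Benjamini-Hochberg adjusted p of 0.05, and none of the 26 Hox probes did. The smallest adjusted p among Hox probes was 0.454. At an unadjusted p under 0.05 there were 4 Hox probes (15.4%), 2 higher and 2 lower in mutants, against a background of 5.87% of all probes tested. Over all probes 454 (2.47%) were higher and 623 of 18358 lower at that p. Both lower Hox probes are of Hoxa2. The higher ones are of Hoxc9 and Hoxa9, and Hoxa9 passed the detection filter through the mutants alone. The median difference, mutant minus wild type, was 0.02 over the 26 Hox probes and -0.04 over all tested probes, and 13 of the 26 Hox values lay above 0. With 3 arrays per group the exact permutation test of a single value cannot go below 0.1, so limma's values are given.

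For 5 Hox probes no mutant value fell among the wild-type ones. For 2 probes, of Hoxc9 and Hoxa9, the mutants lay above, against a background of 5.63%, and for 3, the Hoxa2 pair and Hoxa4, they lay below, against a background of 7.68%. Of the 26 Hox probes these are 7.69% and 11.5%, near those shares. Hoxc9, which sets thoracic identity in motor neurons and vertebrae, read 8.19, 8.84 and 8.24 in the mutants and 5.54, 7.87 and 6.45 in wild types 1 to 3. All mutant values were high and close together (SD 0.36, n = 3), and the wild-type values were spread widely (SD 1.17, n = 3). The log2 difference was 1.80 (SE 0.56, unadjusted p = 0.0149, limma adjusted p = 0.677), a 3.49-fold higher level with a 95% interval of 1.39 to 8.78. The log2 difference was 1.72 without wild-type array 3 (adjusted p = 0.432), 1.28 without wild type 1 and 2.41 without wild type 2. It was 1.22 without background correction, 2.35 under median scaling and 1.30 in the authors' deposited table. Raw intensities were 101.1 and 113.4 in wild types 1 and 3, against 349.4 in wild type 2, and all 3 arrays detected the probe. Probes of Hox genes not detected reached 104.7 over all arrays, so wild types 1 and 3 were dim.

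Hoxa9, best known for its part in blood progenitors and in patterning the thoraco-lumbar spine, read 5.03, 5.28 and 5.41 in the mutants, and 4.68, 4.63 and 4.37 in wild type. No wild-type array detected it, so the fold is a bound, at least 1.33-fold higher in mutants (limma adjusted p = 0.678). Since it entered the fit only through the mutants, its separation is no evidence for the family. Hoxa7, a thoracic patterning gene, read 9.16, 10.39 and 9.60 in the mutants and 7.26, 9.97 and 8.29 in wild types 1 to 3. Here wild type 2 lay among the mutants while the other wild types lay below, and the difference was 1.21 (SE 0.68, adjusted p = 0.791). It was 0.59 without wild type 1, 1.94 without wild type 2 and 1.08 without wild type 3. Hoxc10, a lumbar gene of spinal cord and skeleton, had the same layout, with 5.62, 6.71 and 5.46 in the mutants and 4.43, 6.18 and 4.51 in wild types 1 to 3. Its difference was 0.89 (SE 0.55, adjusted p = 0.791), and the other kept probe gave 0.35. The first of these probes was detected on 3 mutant arrays and on wild type 2 alone among the wild types, so wild types 1 and 3 give background values. Its difference was 0.47 without mutant 2, 1.44 without wild type 2, 0.67 without wild type 3 and 0.17 in the authors' deposited table.

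In Hoxa7, Hoxc9 and Hoxc10 alike, wild types 1 and 3 were low and wild type 2 was near or within the mutant range. Wild types 1 and 3 were also the arrays with the lowest mean raw intensity, 273 and 260, while wild type 2 had 398 and the mutants 390 to 463. Not every Hox gene had this layout: on the normalized values Hoxb2, Hoxb5 and Hoxc13 were highest in wild types 1 and 3. Their raw intensities were not highest on those arrays. The part of overall brightness in the values of any of these genes was not tested. Over the 26 Hox probes, wild type 1 lay below all mutants for 17 (65.4%), wild type 2 for 8 (30.8%) and wild type 3 for 7 (26.9%). Over all tested probes the shares were 32.4%, 25.0% and 32.3%.

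**Figure D2:**
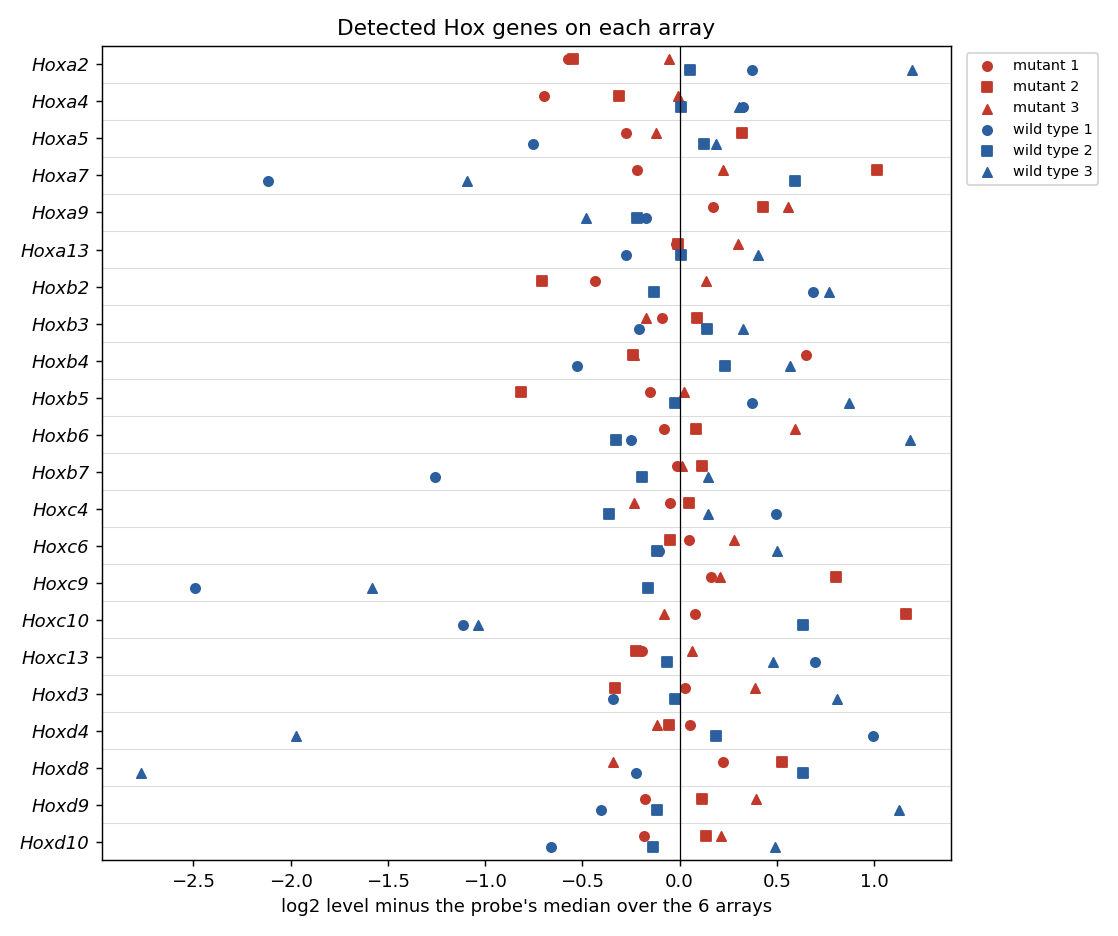
Log2 level of each detected Hox gene (brightest kept probe) on each array, minus that probe's median over the 6 arrays; red marks are mutants and blue marks wild types, with circles, squares and triangles for replicates 1, 2 and 3. Hoxa7, Hoxc9 and Hoxc10 are low in wild types 1 and 3 but not in wild type 2, and Hoxd4 and Hoxd8 are low in wild type 3 alone.

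Hoxa2, which patterns the hindbrain and is the selector gene of the hyoid arch, had both of its probes lower in every mutant than in every wild type. Its brighter probe read 5.92, 5.94 and 6.43 in the mutants and 6.86, 6.54 and 7.68 in wild type, a log2 difference of -0.93 (SE 0.34, adjusted p = 0.784). The dimmer probe read 5.49, 5.00 and 5.48 in the mutants and 6.69, 6.10 and 7.26 in wild type. That is a difference of -1.36 (SE 0.33, unadjusted p = 0.00473, adjusted p = 0.454), a fold of 0.391 with a 95% interval of 0.226 to 0.675. Both probes thus pointed the same way, and neither passed. Without wild-type array 3 the brighter probe gave -0.61 (adjusted p = 0.457), less than the full value by more than 1.5 times.

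Hoxa4, a gene of the neck and upper thorax, read 5.01, 5.39 and 5.69 in the mutants and 6.03, 5.71 and 6.01 in wild type. The highest mutant and the lowest wild type were nearly equal, and the difference was -0.55 (SE 0.25, adjusted p = 0.791), or -0.36 without mutant 1. Hoxb2, which acts in the hindbrain and its facial motor neurons, read 7.32, 7.04 and 7.89 in the mutants and 8.44, 7.62 and 8.52 in wild type. Hoxb5, needed for shoulder position and for enteric neural crest, read 6.89, 6.23 and 7.07 in the mutants and 7.42, 7.03 and 7.92 in wild type. In both genes mutant 3 lay above wild type 2, so the groups overlapped, and the differences were -0.78 (SE 0.34) for Hoxb2 and -0.72 (SE 0.33) for Hoxb5, each with adjusted p = 0.791. Without wild type 3 Hoxb2 gave -0.60 and Hoxb5 -0.49, and without mutant 2 Hoxb5 gave -0.47.

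Hoxc13, without which mouse hair shafts break and the coat is lost, read 4.96, 4.93 and 5.21 in the mutants and 5.84, 5.09 and 5.63 in wild type. Mutant 3 lay just above wild type 2, and the difference was -0.49 (SE 0.26, adjusted p = 0.791). The probe was dim, with detection scores of 0.974 to 0.999. Its raw intensities were 107.8, 114.7 and 110.9 in the mutants and 107.2, 108.7 and 94.4 in wild type, so the mutants were not lower before processing. Among hair shaft genes, 4 of the 8 on the array were detected, with a median difference of -0.50, and 0 were called. One of the 4, Krt34, a hair keratin, was detected on 3 wild-type arrays and 0 mutant arrays, so it passed the filter only through wild type and the median is not independent of that filter. Foxn1, a hair shaft regulator that lies downstream of Hoxc13 in the mouse, was not detected. Of 10 hair follicle markers 6 were detected, with a median of -0.29. Their summed linear level was 2043 to 2735 in the mutants and 2737 to 4432 in wild type, most of it from Sox9 on every array. Of the 6, 4 lay below 0 and 2 above, Lef1 at 0.46 and Lhx2 at 0.19. The part of the hair follicle markers in the Hoxc13 value was not tested. Msx2, Gli1, Edar and Foxe1 were not detected.

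The remaining detected genes had 95% intervals on both sides of 0, as did Hoxa4, Hoxa7, Hoxb2, Hoxb5, Hoxc10 and Hoxc13 above. Hoxb7, another thoracic gene, read 9.80, 9.93 and 9.82 in the mutants and 8.55, 9.62 and 9.96 in wild type. Only wild type 1 stood well below the mutants, and the difference was 0.47 (SE 0.37), with 0.43 for its other kept probe. Without wild type 1 it was 0.063, and without wild type 3 it was 0.76. Hoxa5, required for lung and cervical skeleton, differed by 0.12 (SE 0.32), and Hoxd10, a lumbar gene that helps set hindlimb motor neurons, by 0.16 (SE 0.32). Hoxc6, of the thorax and mammary gland, had nearly equal group means, with 10.10, 10.01 and 10.33 in the mutants, against 9.95, 9.94 and 10.55 in wild type, and differed by -0.00079 (95% interval -0.59 to 0.59).

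Hoxb6, a thoracic gene expressed in lateral mesoderm, differed by -0.0048 (SE 0.44), because wild type 3 at 6.77 was above all mutants and wild types 1 and 2, at 5.34 and 5.26, were below them. Hoxb4, used to expand blood stem cells, differed by -0.04 (SE 0.38). Hoxb3, Hoxc4 and Hoxd3, all near the detection threshold, differed by -0.14, -0.17 and -0.12, and Hoxa13 by 0.05. The probes of Hoxd9, which acts in the lumbar skeleton and forelimb, disagreed in sign, at -0.09 (SE 0.42) and 0.26 (SE 0.22). For all these genes limma's adjusted p was at least 0.791.

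Grouped by position in the cluster, a division made after the values were seen and therefore not tested, the 10 detected genes of paralogues 2 to 5 had a median difference of -0.16, with 8 below 0. The 10 of paralogues 6 to 10 had a median of 0.58, with 7 above 0. The median over all tested probes was -0.04, and 46.1% of them lay above 0. Without wild-type array 3 the medians were -0.32, with 7 of 10 below 0, and 0.57, with 9 of 10 above 0. Over all tested probes the median without that array was 0.0054. Without wild-type array 1 the median over all tested probes was -0.099. In the second set Hoxb6, Hoxc6, Hoxd9 and Hoxd10 were then below 0, at -0.23, -0.096, -0.40 and -0.12, and the rest above. In the first set Hoxc4 and Hoxd4 were above 0, at 0.032 and 0.90, and the rest below. Within bo20 the medians of the Hox sets were -0.33 and 0.44, against 0.00 over all tested probes. Within bo12 they were -0.46 and 0.41, against -0.19. The 0.41 falls in a gap between Hoxb7 at -0.14 and Hoxc10 at 0.96. Hoxb6, Hoxb7, Hoxc6, Hoxd9 and Hoxd10 lay below 0 within bo12, and Hoxa7, Hoxa9, Hoxc9, Hoxc10 and Hoxd8 above. For Hoxa9 and Hoxc10 wild type 3 did not detect the probe. Hoxa9, which passed the filter through the mutants alone, is among the second set.

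Within title prefixes, bo20 compares 2 mutants with 2 wild types and bo12 compares 1 with 1, so the latter pair of arrays has no error. The median over the 26 Hox probes was 0.20 within bo20 and -0.29 within bo12, against 0.00 and -0.19 over all tested probes. In the authors' deposited table the Hox medians were 0.0044 and -0.18. Taking the brightest probe of each of the 22 genes, 5 were higher in mutants within both prefixes, Hoxa7, Hoxa9, Hoxc9, Hoxc10 and Hoxd8. Over all 26 Hox probes this held for 7 (26.9%), against a background of 24.9%. Hoxa9 is among them only because the mutant arrays carried it through the filter. The Hoxc10 probe was not detected in wild types 1 and 3, so its values are set against background there. Another 6 genes were lower within both, Hoxa2, Hoxa4, Hoxb2, Hoxb5, Hoxc4 and Hoxc13. Over the 26 probes this also held for 7 (26.9%), against a background of 34.9%. The other 11 went opposite ways, 10 of them higher within bo20 and lower within bo12. Hoxc9 differed by 1.81 within bo20 and 1.79 within bo12, and Hoxa7 by 1.16 and 1.31. Hoxa2 differed by -0.77 within bo20 and -1.25 within bo12.

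**Figure D3:**
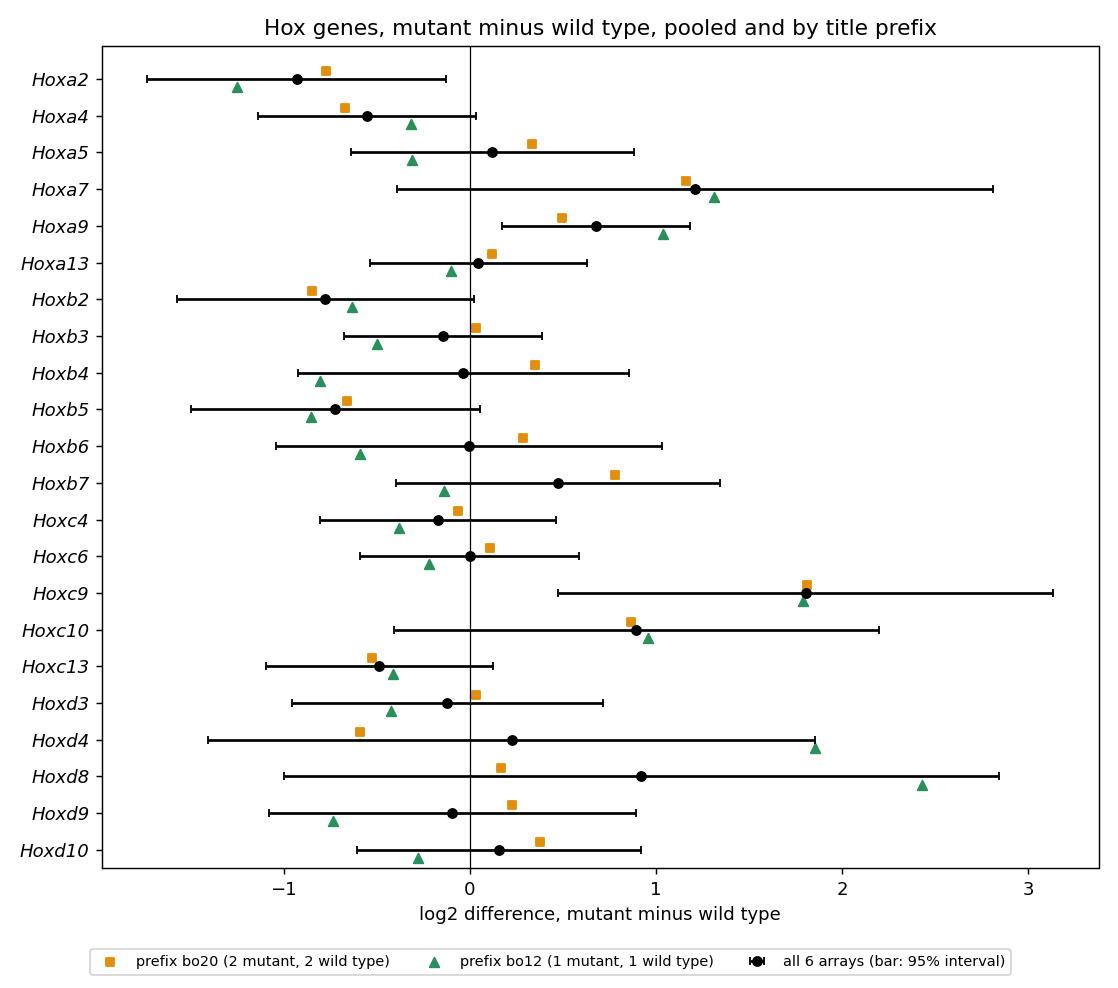
Log2 difference, mutant minus wild type, for the brightest kept probe of the 22 detected Hox genes: black points with 95% intervals use all 6 arrays, squares the prefix bo20 and triangles the prefix bo12. Hoxa7, Hoxc9 and Hoxc10 lie to the right and Hoxa2, Hoxb2 and Hoxb5 to the left in both prefixes, while Hoxd4 and Hoxd8 lie far apart.

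The difference between prefixes was itself tested with an interaction term in limma, in which the spread comes from the bo20 arrays. Of all tested probes 10.1% passed an adjusted p of 0.05, and of the 26 Hox probes 2 did, those of Hoxd4 and Hoxd8. Hoxd4, of the neck vertebrae, read 6.29, 6.18 and 6.12 in the mutants and 7.23, 6.42 and 4.26 in wild types 1 to 3. It was not detected in wild type 3 and was lower in both bo20 mutants than in both bo20 wild types. Its difference was -0.59 within bo20. Within bo12 the measured difference was 1.85, but wild type 3 was at background, so mutant 3 was at least 2.33-fold higher and no more than that bound is known. The interaction (adjusted p = 0.0134) is computed from that background value.

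Hoxd8, a gene of the trunk, read 8.76, 9.07 and 8.20 in the mutants and 8.32, 9.18 and 5.77 in wild types 1 to 3. The bo20 arrays of both groups overlapped and wild type 3 lay far below them. The difference was 0.17 within bo20 and 2.43 within bo12 (interaction adjusted p = 0.026). Pooled over prefixes, it was 0.92 (SE 0.81, adjusted p = 0.793) for Hoxd8 and 0.22 (SE 0.69, adjusted p = 0.922) for Hoxd4. Without wild-type array 3 these values were -0.07 and -0.63. Hoxd9 and Hoxd10, neighbours of Hoxd8 in the cluster, were not low there: wild type 3 was the highest array for Hoxd10, at 7.51, and for the brighter Hoxd9 probe, at 8.26. The dimmer Hoxd9 probe read 6.88 in wild type 3, within the mutant range.

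Beside this array, the skeletal muscle markers also stood low: their median deviation from the 6-array median was -1.10 in wild type 3 and -0.12 to 0.42 on the other 5 arrays. The summed linear level of the 10 muscle markers was 65778 to 88411 in the mutants and 31631 to 79202 in wild type. Among dermal fibroblast markers, Dcn read 12.95 to 13.71 on the other arrays and 9.14 in wild type 3. Pdgfra, Col1a2 and Col3a1 were also lowest in wild type 3, while Lum, Col6a1, Twist1, Twist2 and Fbn1 were highest there. Col3a1 and the muscle marker Myh3 were also low on mutant 3, the other bo12 array. They read 7.62 and 8.79 on it, against at least 10.57 and 12.30 on the bo20 arrays. The whole fibroblast list had a median deviation of 0.00 in wild type 3. Its summed level was 41255 to 48281 in the mutants and 36899 to 45031 in wild type, with Postn not detected. The 26 Hox probes had median deviations of -0.07, 0.07 and 0.04 in the mutants and -0.26, -0.02 and 0.32 in wild types 1 to 3. Over all tested probes wild type 3 also stood high, at 0.22, with -0.02 to 0.02 on the other arrays. Of 7 macrophage and Langerhans cell markers 6 were detected, 0 were called and 6 lay above 0 (median 0.65), where 46.1% of all tested probes did. Their summed level was 2737 to 3137 in the mutants and 1025 to 1404 in wild type, most of it from Lyz2 in the mutants, and Aif1, Cd68, Csf1r and Adgre1 overlapped between the groups. Cd207, the Langerhans marker, was not detected. The part of muscle, dermis, macrophages or array quality in the Hox values was not tested.

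**Figure D4:**
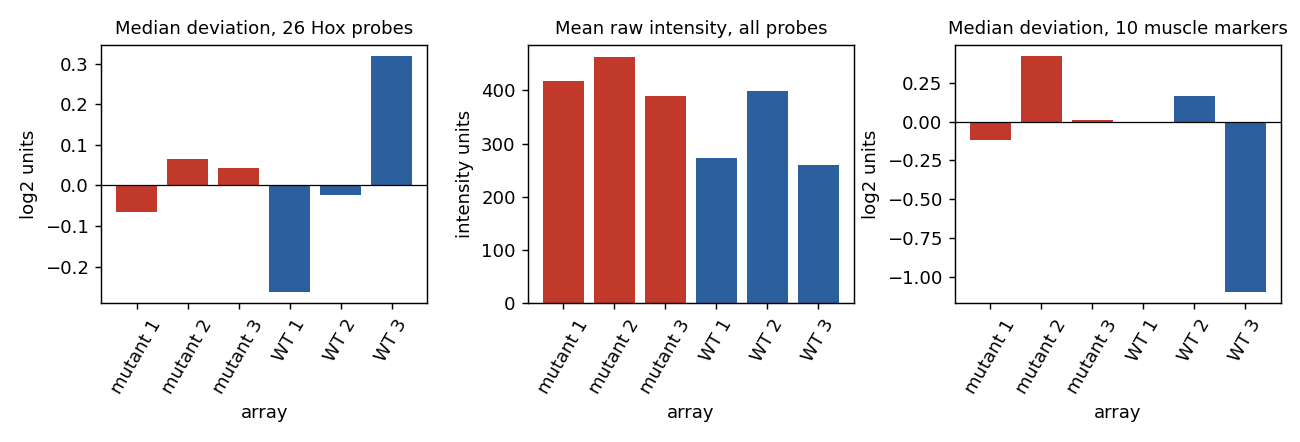
For each array, mutants left (red) and wild types right (blue): median log2 deviation of the 26 Hox probes from their 6-array median, mean raw intensity over all probes, and median log2 deviation of 10 skeletal muscle markers. Wild types 1 and 3 have the lowest mean intensity (273 and 260), and wild type 3 the lowest muscle value (-1.10).

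Hox proteins bind DNA together with the TALE cofactors of the Meis, Pbx and Pknox families. Of 8 of these genes on the array, 7 were detected and 0 were called, with 3 values above 0, 4 below and a median of -0.09. Meis1 read 9.06, 8.98 and 8.76 in the mutants and 8.67, 8.80 and 8.04 in wild type, a difference of 0.43 (SE 0.26). Meis2 differed by 0.13 (SE 0.22) and Pknox2 was at least 1.13-fold higher in mutants (adjusted p = 0.791), since no wild-type array detected it. Pbx4 was not detected.

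Polycomb proteins keep Hox genes silent outside their domain, and trithorax proteins keep them active within it. Of 23 Polycomb genes on the array 18 were detected, 0 were called and 12 lay below 0 (median -0.16). Ezh2, the methyltransferase of Polycomb complex 2, read 8.69, 8.35 and 8.48 in the mutants and 7.34, 8.53 and 8.92 in wild type, a difference of 0.25 (SE 0.41). Of 12 trithorax genes 11 were detected, 0 were called and 10 lay below 0 (median -0.19). Kmt2a, which maintains Hox transcription, differed by -0.58 (SE 0.34). Wild-type array 3 was high in both lists, with median deviations of 0.54 and 0.60, and within bo20 their medians were -0.06 and -0.12.

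Of 13 ParaHox genes and upstream axial regulators, 3 were detected and 0 called. These were Acvr2b, a receptor for the posteriorising ligand Gdf11, the retinoic acid receptor Rarg and Cdx1, an activator of Hox genes, at -0.19, -0.02 and -0.45. Genes that flank the clusters served as neighbours on the chromosome, with 4 of 10 detected and 0 called. They were Skap2 and Hibadh on the Hoxa side, at -0.04 (SE 0.23) and -0.18 (SE 0.22), and Smug1 and Calcoco1 on the Hoxc side, at -0.33 (SE 0.27) and -0.58 (SE 0.31). Evx1 and Evx2, homeobox genes at the ends of the Hoxa and Hoxd clusters, were not detected. The 9 listed noncoding RNAs of the clusters had no probe under those symbols.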

How the data were processed

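The authors deposited raw bead intensities per probe and array, with no background subtraction or normalization per the file headers, and beside each a fraction from 0 to 1 under a p-value heading. Since the brightest probes stand at 1, the deposited fraction was taken for a detection score, that is 1 minus p. BeadStudio, with no version, is named per the submitters' processing notes. The authors' deposited log2 table equals log2 intensity minus the array's 75th percentile and then minus each probe's median: 100% of values came out within 0.001, so its scale, centring and direction are known. Its column medians were -0.13, -0.13 and 0.01 in mutants 1 to 3 and 0.26, -0.01 and 0.33 in wild types 1 to 3.

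Background was corrected with normexp, which drew on the scores for its negative controls, with an offset of 16. Quantile normalization followed after log2 (limma 3.58.1, R 4.3.3). Probes with a score above 0.95 on at least 3 arrays were kept (18358; 13743 on all 6) and fitted with lmFit and eBayes, two-sided, with Benjamini-Hochberg adjustment over all kept probes. The fit was tested on simulated data. Levels of a gene are those of its kept probe with the highest mean, and sums over marker lists add linear values of such probes. No pair of arrays shared more than 0.517% of its raw values, so no array was a copy. The 3 arrays per group limit precision. Where nothing says that samples came from separate embryos, p-values measure the spread between samples only.

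Of 45281 probes 35784 carried 1 symbol, 0 several and 9497 none. Hox genes were taken by the platform's symbol. For other lists, symbols were updated through Entrez identifiers (28620 probes) or accessions (2637), and kept otherwise (4527), with gene spans and names from GRCm38.p6. The probes' own build is not stated. Named were all detected Hox genes and, of other lists, Meis1, Meis2, Ezh2, Kmt2a, Foxn1, called members and genes next to a cluster. All other named genes of those lists, detected or not, were chosen after their values were seen. Among them are Pknox2, Rarg, Acvr2b, Cdx1, Dcn, Krt34, Sox9, Lyz2 and the other macrophage markers. Members and lists were chosen with earlier results of these data known.

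The labels' descriptions number the replicates, and the numbers were checked for pairing: deviations from the group means correlated at 0.27, 0.46 and 0.54 between same-numbered mutant and wild-type arrays, all above 0.1, and a replicate block was run as an alternative. Mutant 1 correlated more with wild type 2 (0.45) than with wild type 1, and pairs across title prefixes were all below 0, so the correlations follow the prefix as much as the number. Deviations within a group sum to 0 for each probe, which ties these correlations to one another. They therefore cannot settle whether arrays are paired by number. Other alternatives were no background correction, offset 50, median scaling, the authors' table, other filters, a trended and robust eBayes, array weights, the title prefix as a block, the bo20 arrays alone and leaving out each array.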

Additional observations from a re-analysis of the deposited data

Results flagged for a closer look

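The interaction of title prefix and genotype passed limma's adjusted p of 0.05 for 2 Hox probes, where 10.1% of all tested probes passed. For Hoxd4 the mutant minus wild-type difference within bo20 minus that within bo12 was -2.44 (interaction adjusted p = 0.0134), and for Hoxd8 it was -2.26 (interaction adjusted p = 0.026). In each case wild type 3, at 4.26 for Hoxd4 and 5.77 for Hoxd8, was the lowest of the 6 arrays, and the bo12 comparison rests on that array and mutant 3 alone. For Hoxd4 wild type 3 was not above background, so its -2.44 is set against a background value. The prefix cannot be told apart from these single arrays.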

How the results depend on the processing

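No Hox probe passed an adjusted p of 0.05 under any of the 18 alternatives run, the replicate block included (0 of 26 Hox probes, 0 of all probes, 1690 at an unadjusted p under 0.05), which changed no call. The count of all probes called, 0, became 1 without background correction, 6 in the authors' table, 129 with array weights, 48 with the title prefix as a block and 78 with the bo20 arrays only, and ranged from 0 to 51 when single arrays were left out, the 51 coming without wild-type array 3. Among the listed genes the count was 0, and 1 (Lyz2, a macrophage lysozyme) in the authors' table, with array weights, with the prefix block, with bo20 only and without wild-type array 3 (range over left-out arrays 0 to 1).

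The Hox median of 0.02 became 0.55 under median scaling, where all tested probes had a median of 0.42, and 0.27 with array weights. It was -0.0088 in the authors' table, -0.00079 when a probe had to be detected on every array and -0.00079 without a detection filter, and ranged from -0.12 to 0.24 over left-out arrays, the lowest without wild-type array 1 and the highest without wild-type array 3. Under median scaling the medians within bo20 and bo12 were 0.68 and 0.34. Hoxa7, Hoxa9, Hoxb7, Hoxc9 and Hoxc10 were above 0, and Hoxa2, Hoxa4, Hoxb2, Hoxb5 and Hoxc13 below 0, under every setting run for them, but not always by much: Hoxa9 was at 0.00033 in the authors' table, and Hoxb7 at 0.063 without wild-type array 1. The adjusted p of Hoxc9 ranged from 0.120 to 0.998 and that of Hoxa2 from 0.136 to 0.998.

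The other 12 genes turned sign somewhere, and the cause was not tested. Under median scaling Hoxb3, Hoxb4, Hoxb6, Hoxc4, Hoxc6, Hoxd3 and Hoxd9 were at 0.021, 0.54, 0.48, 0.019, 0.55, 0.029 and 0.50. That setting raised the median over all tested probes from -0.04 to 0.42, but did not move every probe by the same amount. Hoxb3 went from -0.14 to 0.021 and Hoxb4 from -0.04 to 0.54. Hoxb3, Hoxc4 and Hoxd3 still lay below the median of 0.42. In the authors' table Hoxa13, Hoxb4, Hoxc6, Hoxd4 and Hoxd9 were at -0.16, 0.034, 0.26, -0.018 and 0.044. With array weights Hoxb3, Hoxb4, Hoxb6, Hoxc6, Hoxd3, Hoxd4 and Hoxd9 were at 0.037, 0.41, 0.29, 0.13, 0.13, -0.61 and 0.26, and with bo20 only at 0.037, 0.35, 0.31, 0.11, 0.035, -0.59 and 0.23. With cyclic loess, chosen after seeing the data, Hoxb4, Hoxb6 and Hoxc6 were at 0.023, 0.11 and 0.050. The other kept probe of Hoxd9 gave 0.26. Over left-out arrays the ranges were -0.12 to 0.24 for Hoxa13, -0.18 to 0.28 for Hoxa5, -0.35 to 0.21 for Hoxb4, -0.27 to 0.51 for Hoxb6, -0.39 to 0.032 for Hoxc4, -0.10 to 0.20 for Hoxc6, -0.12 to 0.46 for Hoxd10, -0.39 to 0.23 for Hoxd3, -0.63 to 0.90 for Hoxd4, -0.070 to 1.63 for Hoxd8 and -0.40 to 0.37 for Hoxd9.

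The number of detected Hox genes was 22, with 19 at a score above 0.99, 16 when all 6 arrays were required, 25 with at least 1 array and 19 to 21 with an array left out. Interaction calls numbered 1846 and ranged from 1364 to 3439 without single bo20 arrays, the highest without wild-type array 2. Without wild-type array 3, the mutants lay above the remaining wild types for 7 of 26 Hox probes (26.9%), against 14.5% of all tested probes. They lay below for 4 (15.4%), against 11.4%. The 7 include Hoxa9, which passed the filter through the mutants alone, and both Hoxb7 probes. Both Hoxa2 probes are among the 4. Hoxa9, Hoxb3, Hoxc4, Hoxc10, Hoxd3 and Hoxd4 were not detected on some arrays, which limits how well their differences are known.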
